A study of Mus musculus with 6 samples.

Results

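The 10 genes described here encode secreted factors that draw, feed or alert macrophages and other white blood cells: the chemokines Ccl2, Ccl7, Cxcl1, Cxcl12 and Cx3cl1, the colony-stimulating ligands Csf1 and Il34, and the cytokines Il6, Lif and Il33. They were taken by name from a table of counts for 20173 genes in cultures of mouse sympathetic neurons. The cultures are described as taken from sympathetic chains of 3-week-old male mice on a C57BL/6J background and kept for 4 to 5 days in neural medium with B27 supplement. The isolation step of the methods names dorsal root neurons, while the labels name sympathetic ganglion, and the source of the cells beyond this is not settled by the sources used here. Slit2 encodes a secreted axon guidance protein. The control group, Slit2fl/fl, carried the floxed Slit2 allele and is labelled SLIT2f/f. The second group, Slit2th, carried the same floxed allele and in addition Th-Cre, in which the promoter of tyrosine hydroxylase, an enzyme of catecholamine synthesis, drives Cre, and is labelled SLIT2-knockout. The deletion in this model is thus limited by design to cells that use or have used that promoter. Each group had 3 libraries of bulk RNA, numbered 1 to 3, and the labels do not say whether these came from separate mice or cultures. The p-values below therefore measure the spread between these libraries, which may be technical.

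Chemokines bind receptors on white blood cells and direct their movement. Ccl2 and Ccl7 draw monocytes through Ccr2, Cxcl1 draws neutrophils through Cxcr2, Cxcl12 binds Cxcr4 and the scavenging receptor Ackr3, and Cx3cl1 binds Cx3cr1. Csf1 and Il34 share the receptor Csf1r, on which the survival of macrophages depends, and Il34 also binds Ptprz1. Il6 and Lif signal through receptors that contain Il6st (gp130) and activate Stat3, and Il33 is a nuclear alarm cytokine of barrier, stromal and glial cells that is sensed by Il1rl1 together with Il1rap. In peripheral ganglia and nerves such factors are known from the response to injury, in which glia and fibroblasts release them and macrophages enter the tissue.

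Promoter sequences are shown for some of the genes at both ends of the results: Cxcl12 and Il33, whose libraries separated by genotype, and Cxcl1 and Il6, which were at or near the limit of detection. Each is the stretch of 250 bases that ends just before a transcription start in the RefSeq set used here (GRCm38.p6), written 5′ to 3′, and 7 of the 10 genes had at least 1 start there, with 8 starts in all. Il34, whose libraries also separated by genotype, had no start in that set, and neither had Ccl2 or Ccl7. Capitals mark matches to the motifs searched on both strands, and Il33 has an upstream and a downstream start.
Cxcl12, chr6:117168285-117168534, plus strand: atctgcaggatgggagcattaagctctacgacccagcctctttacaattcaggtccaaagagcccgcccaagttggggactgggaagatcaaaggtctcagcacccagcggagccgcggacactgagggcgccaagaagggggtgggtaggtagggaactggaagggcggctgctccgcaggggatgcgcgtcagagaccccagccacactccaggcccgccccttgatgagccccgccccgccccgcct
Il33 upstream start, chr19:29924863-29925112, plus strand: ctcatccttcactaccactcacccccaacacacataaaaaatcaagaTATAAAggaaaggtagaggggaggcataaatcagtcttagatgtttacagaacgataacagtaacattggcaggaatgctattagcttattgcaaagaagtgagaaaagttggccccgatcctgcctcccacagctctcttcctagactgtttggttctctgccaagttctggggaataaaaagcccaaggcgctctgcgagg
Il33 downstream start, chr19:29945540-29945789, plus strand: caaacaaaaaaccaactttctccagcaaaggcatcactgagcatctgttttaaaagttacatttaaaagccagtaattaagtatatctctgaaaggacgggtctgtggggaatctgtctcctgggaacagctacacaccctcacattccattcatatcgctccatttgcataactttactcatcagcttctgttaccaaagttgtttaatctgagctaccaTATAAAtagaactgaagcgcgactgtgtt
Cxcl1, chr5:90890995-90891244, plus strand: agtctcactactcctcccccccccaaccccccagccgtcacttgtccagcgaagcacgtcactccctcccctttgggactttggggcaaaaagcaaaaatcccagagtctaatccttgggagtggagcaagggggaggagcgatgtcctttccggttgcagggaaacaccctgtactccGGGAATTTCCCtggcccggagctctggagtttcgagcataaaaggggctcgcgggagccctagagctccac
Il6, chr5:30012864-30013113, plus strand: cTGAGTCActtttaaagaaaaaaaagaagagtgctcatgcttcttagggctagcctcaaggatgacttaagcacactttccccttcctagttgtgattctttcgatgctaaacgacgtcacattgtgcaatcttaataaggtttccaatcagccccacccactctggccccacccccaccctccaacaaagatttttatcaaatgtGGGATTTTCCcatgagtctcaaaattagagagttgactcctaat

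The motifs were the TATA box (TATAAA), the AP-1 site (TGANTCA), the STAT site (TTCNNNGAA) and the NF-kappaB consensus. Among 32807 RefSeq windows of the same length, 12.4% held the first, 6.75% the second, 7.02% the third and 7.25% the NF-kappaB consensus. The Cxcl12 window held 0 matches, with a GC content of 64.4% and 14 CG dinucleotides, against medians of 52.4% and 6 over all windows. The Il33 windows held 4 CG dinucleotides each and a TATAAA match, at -203 to -198 from the upstream start and at -29 to -24 from the downstream start. The Cxcl1 window held a pair of overlapping NF-kappaB matches at -71 to -61, and the Il6 window held an AP-1 match at -249 to -243 and an NF-kappaB match at -44 to -35. Matches to the NF-kappaB consensus also lay before the starts of Csf1 and Lif. The window of Cx3cl1, a gene also at the limit of detection but not printed, held only a TATAAA match, at -6 to -1. The counts give a total per gene, so they do not show which Il33 start was used.

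Library totals ran from 1255939 to 3155406 counts (median 1724524), so that 3 counts, taken here as the floor of detection, corresponded to 0.951 to 2.39 CPM (counts scaled to a common library size) depending on the library. After scaling, Slit2 stood at 44.4, 55.0 and 43.7 CPM in the Slit2fl/fl libraries and at 15.0, 11.4 and 15.2 CPM in the Slit2th libraries. The groups did not overlap, the direction was that of the labels, and the log2 fold change was -1.78 (SE 0.37), with an adjusted p of 0.423 by the quasi-likelihood (QL) test of edgeR over 12152 genes. Th itself had 0 counts in all 6 libraries, and the neuronal genes Snap25 and Npy had 1 count each over the series, so these defining markers were absent or nearly so at this depth although the labels name the cells as neurons. Other neuronal markers of the same list were present in every library, among them the vesicular monoamine transporter Slc18a2 at 4.47 to 17.5 CPM (123 counts in all) and Stmn2, a protein of growing axons, at 16.3 to 43.1 CPM. Glial and collagen transcripts were among those detected in every library, with S100b, a calcium-binding protein of glia, at 960.5 to 2572 CPM and Col1a2 at 1451 to 2569 CPM. Replicate 1 of each group stood apart: the correlation of log2 CPM over the genes tested was 0.833 and 0.853 with its partners in Slit2fl/fl and 0.859 and 0.857 in Slit2th, against 0.925 and 0.956 between replicates 2 and 3. Where leaving out a single library changed a fold (not its log2) by a factor of over 1.5, the log2 value without that library is given. Smaller shifts are not all given, so a difference printed without such a value can still depend on 1 library.

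Levels of different genes can be set beside each other per kilobase of exon. On the scale of CPM per kb, the monocyte chemokines Ccl7 and Ccl2 stood highest among the 10 genes, with medians of 56.0 (range over the 6 libraries 39.6 to 115) and 55.7 (27.4 to 72.3). Il33 and Il34 followed at medians of 27.2 (4.10 to 43.5) and 25 (7.19 to 143), and Csf1 at 8.88 (4.36 to 11.3). Cxcl12 at 1.78 (0.430 to 3.66), Lif at 1.53 (1.04 to 4.27) and Cxcl1 at 0.962 (0 to 2.10) formed a lower tier, and Cx3cl1 at 0.216 (0.0813 to 0.448) and Il6 at 0 (0 to 0.263) lay at the bottom. Ranges of neighbours in this order overlapped except between Csf1 and Cxcl12. Against 17348 genes with a count and an annotated length, the mean level of Ccl2 per kb lay above 94.9% of genes in Slit2fl/fl and 95.8% in Slit2th, and that of Ccl7 above 96.7% and 95.1%. Il33 lay above 85.6% and 94.2%, Il34 above 96.4% and 84.6%, and Cxcl12 above 39.1% and 63.0%.

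**Figure D1:**
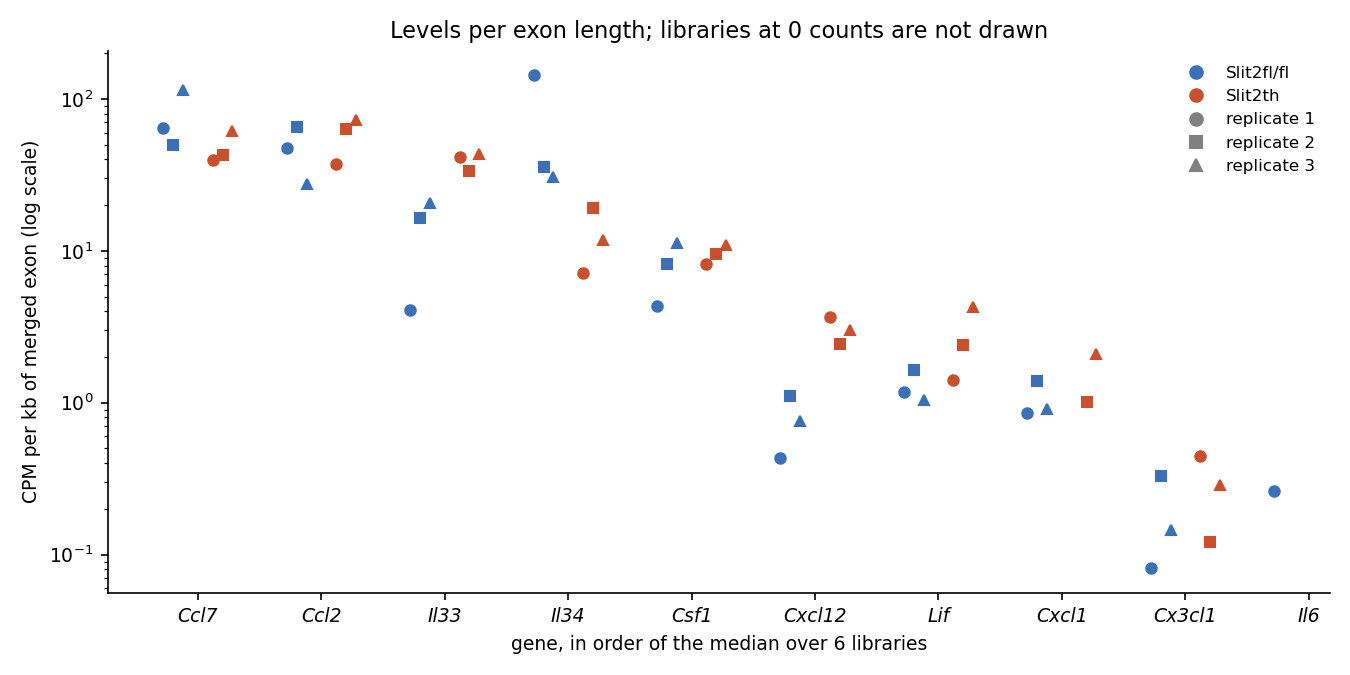
Levels of the 10 genes in CPM per kilobase of exon, on a log axis, with each library as a point coloured by group and libraries at 0 counts not drawn. Ccl7 and Ccl2 lead with medians of 56.0 and 55.7 CPM per kb, and the points of Il34 spread from 7.19 to 143.

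Cxcl12 (ENSMUSG00000061353; chr6:117168535-117181367 of GRCm38, plus strand), a chemokine that stromal cells secrete to retain and attract white blood cells, stood 4.02-fold higher in Slit2th. Its counts were 11, 14 and 11 in Slit2fl/fl against 34, 42 and 44 in Slit2th, or 3.52, 9.06 and 6.24 CPM against 29.9, 20.0 and 24.8 CPM. The lowest Slit2th library lay well above the highest Slit2fl/fl library, and the groups did not overlap. Means were 6.27 ± 2.77 CPM and 24.9 ± 4.96 CPM (SD, n = 3 each), and the log2 fold change was 2.01 (SE 0.49, 95% interval 0.90 to 3.12). This was 57th of the 12152 genes by p, with an adjusted p of 0.423 in the edgeR QL test, and thus did not pass the threshold of 0.05. The exact two-sided permutation test of the 6 libraries gave p = 0.10, the smallest that 3 against 3 can give. With replicate 1 of both groups left out the log2 fold change was 1.53. Its promoter, printed above, is the GC-rich window with 0 motif matches.

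Il33 (ENSMUSG00000024810; chr19:29925114-29960718, plus strand), the alarm cytokine, stood 2.90-fold higher in Slit2th. Its counts were 37, 73 and 105 against 135, 204 and 223, or 11.8, 47.2 and 59.6 CPM in Slit2fl/fl against 119, 97.1 and 126 CPM in Slit2th. The Slit2th libraries lay close together and above every control, while Slit2fl/fl replicate 1 was far below its partners. Means were 39.5 ± 24.8 and 114 ± 14.9 CPM (SD, n = 3 each). The log2 fold change was 1.53 (SE 0.55, 95% interval 0.30 to 2.77), with an adjusted p of 0.423 in the edgeR QL test and an exact permutation p of 0.10. Without Slit2fl/fl replicate 1 the difference was 1.10, and with both replicates 1 left out it was 1.04 at an adjusted p of 0.0335 by the edgeR QL test, the sole setting in which any of the 10 genes passed.

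The ligands of Csf1r differed from each other. Il34 (ENSMUSG00000031750; chr8:110741829-110805924, minus strand), a ligand known from neurons and epidermis, stood lower in Slit2th, with 876, 108 and 106 counts against 16, 79 and 41. This was 280.0, 69.9 and 60.1 CPM in Slit2fl/fl against 14.1, 37.6 and 23.1 CPM in Slit2th. The groups did not overlap, and Slit2fl/fl replicate 1 held by far the most. Means were 137 ± 124 and 24.9 ± 11.9 CPM (SD, n = 3 each), the fold was 0.184 (95% interval 0.0648 to 0.522) and the log2 fold change was -2.44 (SE 0.67), with an adjusted p of 0.423 in the edgeR QL test and an exact permutation p of 0.10. Without Slit2fl/fl replicate 1 the log2 fold change was -1.37, and with both replicates 1 left out it was -1.10 at an adjusted p of 0.0602 by the edgeR QL test. Exons of Il34 overlap antisense transcripts by 22 bases (Gm15894) and 75 bases (Gm15895), and the strand setting of the counting is not given in the sources used here.

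Csf1 (ENSMUSG00000014599; chr3:107741048-107760469, minus strand), the broadly made ligand of the same receptor, had 72, 67 and 105 counts in Slit2fl/fl and 49, 106 and 102 in Slit2th. Its levels of 23.0, 43.3 and 59.6 CPM overlapped those of 43.1, 50.5 and 57.5 CPM, and the log2 fold change was 0.27 (SE 0.42, 95% interval -0.68 to 1.22). Set against each other per kb, Csf1 was 0.0305, 0.230 and 0.367 of Il34 in Slit2fl/fl against 1.14, 0.498 and 0.923 of it in Slit2th. Il34 thus exceeded Csf1 in 5 of 6 libraries, and the ratio was higher in every Slit2th library than in any control (log2 difference 2.55, exact permutation p = 0.10). That difference was 1.47 without Slit2fl/fl replicate 1 and 3.26 without Slit2fl/fl replicate 3.

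**Figure D2:**
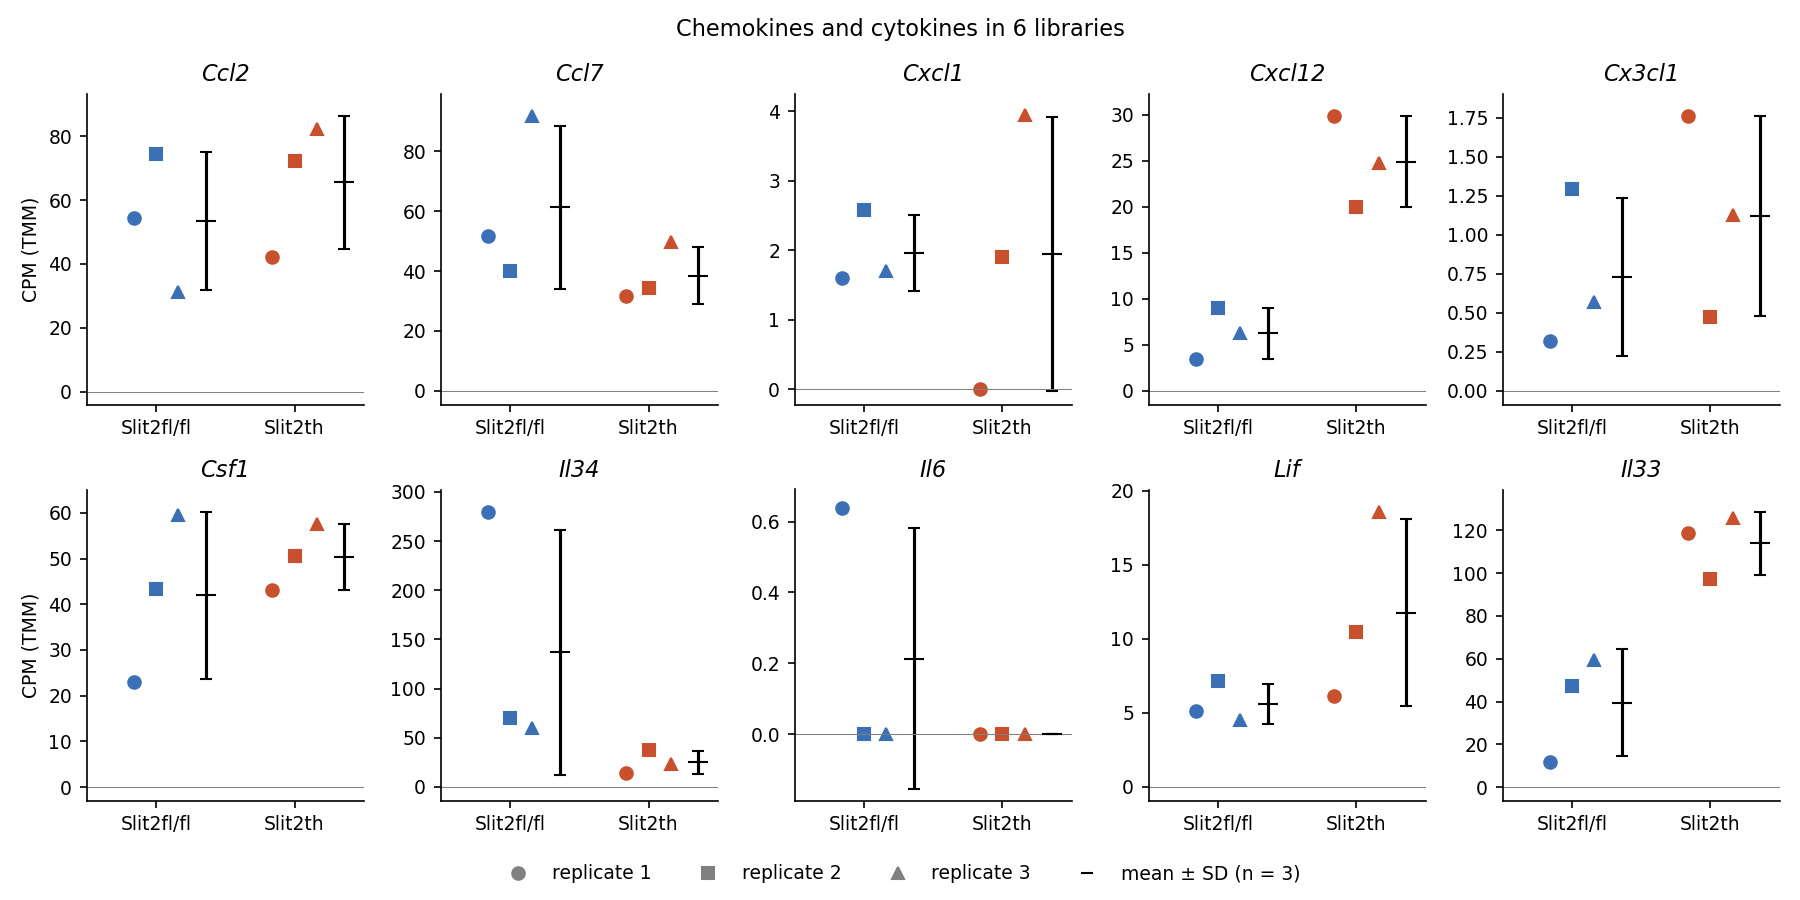
CPM of the 10 genes in each library, with 1 panel per gene, points for libraries and black bars for the mean ± SD of each group (n = 3). Cxcl12 and Il33 are higher and Il34 lower in all 3 Slit2th libraries than in any Slit2fl/fl library, and the other 7 panels overlap.

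Ccl2 and Ccl7, ligands of Ccr2, are neighbours on the plus strand of chromosome 11, 8258 bases apart with 0 protein-coding genes between them. Ccl2 (ENSMUSG00000035385; chr11:82035571-82037453) had 170, 115 and 55 counts in Slit2fl/fl and 48, 152 and 146 in Slit2th, which was 54.3, 74.4 and 31.2 CPM against 42.2, 72.4 and 82.2 CPM. Ccl7 (ENSMUSG00000035373; chr11:82045712-82047525) had 162, 62 and 162 counts against 36, 72 and 88, or 51.8, 40.1 and 91.9 CPM against 31.7, 34.3 and 49.6 CPM. Neither separated the groups. The log2 fold change was 0.30 for Ccl2 (SE 0.43, 95% interval -0.68 to 1.28) and -0.67 for Ccl7 (SE 0.42, -1.62 to 0.29), with adjusted p of 0.785 and 0.553 in the edgeR QL test. A fold of 2.43 for Ccl2 and of 0.325 for Ccl7 was still within these intervals. The ratio of Ccl2 to Ccl7 per kb, at 0.739, 1.31 and 0.239 in Slit2fl/fl against 0.938, 1.49 and 1.17 in Slit2th, overlapped as well (log2 difference 0.94, exact permutation p = 0.3), and their difference was 0.26 without Slit2fl/fl replicate 3. In both genes the spread between control libraries was wide, with Slit2fl/fl replicate 3 lowest for Ccl2 and highest for Ccl7.

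Among the remaining chemokines, Cxcl1 (ENSMUSG00000029380; chr5:90891241-90893115, plus strand) had 5, 4 and 3 counts in Slit2fl/fl and 0, 4 and 7 in Slit2th. These were 1.6, 2.59 and 1.70 CPM against 0, 1.90 and 3.94 CPM, close to the floor of detection, and a difference was not detectable at this depth (log2 fold change 0.10, SE 0.96, 95% interval -2.07 to 2.28, and -0.73 without Slit2th replicate 3). Cx3cl1 (ENSMUSG00000031778; chr8:94772009-94782427, plus strand), a membrane-bound chemokine known from neurons, had 1 or 2 counts in every library and 9 in all. Its level was thus under the floor throughout, and no fold is given.

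Of the gp130 cytokines, Lif (ENSMUSG00000034394; chr11:4257557-4272514, plus strand), which injured ganglia are known to make, had 16, 11 and 8 counts in Slit2fl/fl and 7, 22 and 33 in Slit2th. At 5.11, 7.12 and 4.54 CPM against 6.16, 10.5 and 18.6 CPM the groups overlapped through Slit2th replicate 1. The log2 fold change was 1.09 (SE 0.55, 95% interval -0.16 to 2.34), with an adjusted p of 0.490 in the edgeR QL test, and without Slit2th replicate 3 it was 0.61. Il6 (ENSMUSG00000025746; chr5:30013114-30019981, plus strand) had 2 counts in Slit2fl/fl replicate 1 and 0 in the other 5 libraries, so it was not tested. Expression of Il6 was thus under the floor of 3 counts in all 6 libraries, and this floor allows up to 2.39 CPM in the shallowest.

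Of the 10 genes, 9 passed the filter of at least 1 CPM in at least 3 libraries, and 7 had 3 or more counts in all 6 libraries. Adjusted values under 0.05 by the edgeR QL test numbered 0, as it was over all 12152 genes tested (0% called). At an unadjusted p under 0.05, 2 were higher in Slit2th (Cxcl12 and Il33, where 3.98% of all genes were) and 1 was lower (Il34, where 6.78% were). The same 3 genes had groups that did not overlap, against 8.72% of all genes on the higher side and 9.73% on the lower side. Among the 8 with at least 3 counts in some library, the log2 fold change was positive in 6, against 47.8% of all genes, though that of Cxcl1 turned negative in 4 other settings. DESeq2, edgeR's exact test and limma-voom called 0 of the 9, though DESeq2 gave no adjusted p for Cxcl1 and Cx3cl1 and could not call them.

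**Figure D3:**
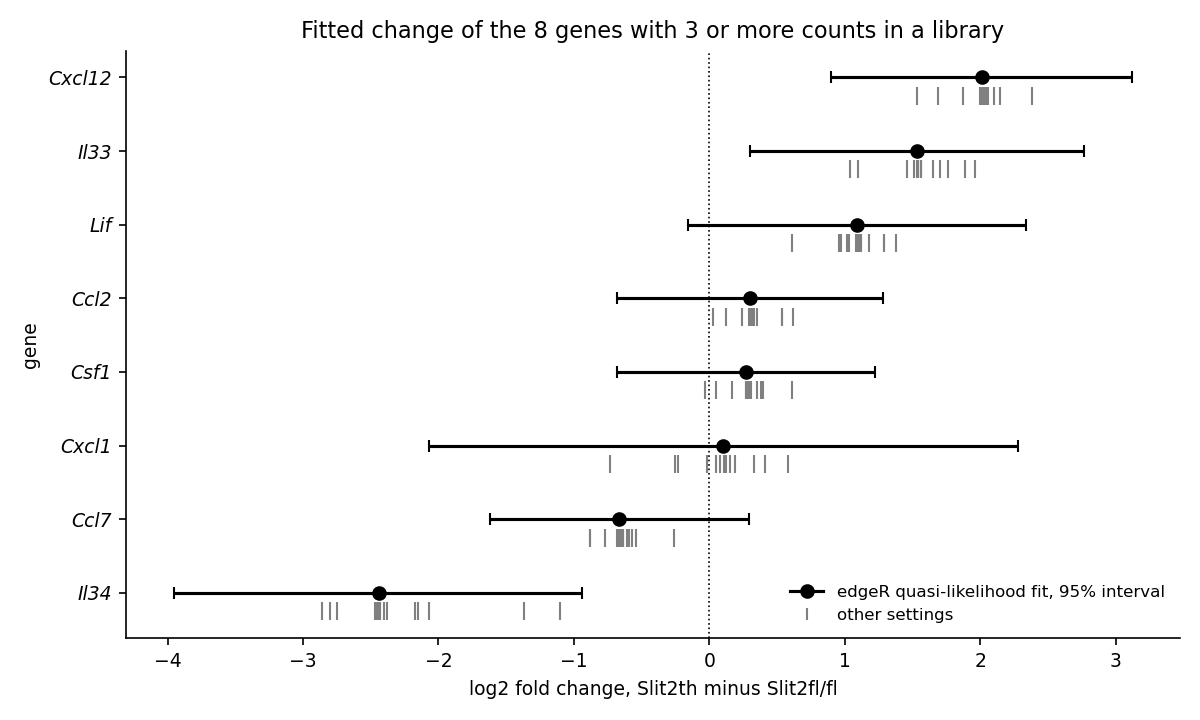
Log2 fold change of Slit2th over Slit2fl/fl for the genes tested with at least 3 counts in a library, as points with 95% intervals from edgeR's fit and grey ticks for the values under other settings. Intervals of Cxcl12 (0.90 to 3.12) and Il33 (0.30 to 2.77) lie above 0 and that of Il34 lies below 0, before adjustment over 12152 genes.

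Summed markers of some cell types stood at different levels by genotype in these bulk libraries, with 0 genes called in any marker list, and in such data fewer cells of a type and less RNA per cell cannot be told apart. Summed over 18 macrophage markers the level was 134, 82.8 and 43.7 CPM in Slit2fl/fl against 744, 155 and 183 CPM in Slit2th, and 14 of 14 markers tested had a positive log2 fold change (median 2.16, 0 called). Their most abundant gene was Lyz2, a lysozyme, at 17.0 to 42.7 CPM against 69.0 to 284 CPM, and Aif1 had 206 counts in Slit2th replicate 1 and 0 to 2 elsewhere. The haemoglobin scavenger receptor Cd163 had 1 count in all. Glial markers (16 genes) summed to 6467, 12033 and 12788 CPM against 21572, 14795 and 16997 CPM, yet 8 of 14 tested had a negative log2 fold change (median -0.21). Of the most abundant, S100b stood at 1231, 1916 and 2572 CPM against 1853, 960.5 and 980.2 CPM, and the cadherin Cdh19 at 339.7 to 1265 CPM against 1383 to 1971 CPM. The fibroblast sum (16 genes) was 3200 to 4048 CPM against 4414 to 5662 CPM, with 11 of 13 positive (median 0.58). The neuronal sum (15 genes, led by Tubb3 and Uchl1) was 573, 169 and 191 CPM against 187, 193 and 184 CPM. Proliferation genes were 357 to 442 CPM against 154 to 291 CPM, with 10 of 10 negative (median -0.79), and endothelial genes were 42.0 to 132 CPM against 49.0 to 57.2 CPM, with 3 of 5 negative. Neutrophil markers (Ly6g and Ngp at 0) and T lymphocyte markers (Cd4 at 0) summed to at most 7.76 and 5.28 CPM in any library.

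Whether Il33 and Cxcl12 still separated the groups depended on the cell type they were set against. Per 1000 CPM of glial markers, Il33 was 1.83, 3.92 and 4.66 CPM in Slit2fl/fl against 5.51, 6.57 and 7.39 CPM in Slit2th, and per 1000 CPM of fibroblast markers it was 3.70, 11.7 and 17.7 against 26.9, 19.1 and 22.2. Cxcl12 was 0.544, 0.753 and 0.488 CPM against 1.39, 1.35 and 1.46 CPM on the glial scale, and 1.10, 2.24 and 1.85 against 6.78, 3.93 and 4.38 on the fibroblast scale. On both scales neither gene's groups overlapped (log2 differences 1 to 1.56, exact permutation p = 0.10 each), and the difference of Il33 on the fibroblast scale, 1.3, was 0.65 without Slit2fl/fl replicate 1. Relative to macrophage markers the separation was gone. Il33 was 88.5, 570.3 and 1364 CPM per 1000 CPM in Slit2fl/fl against 160, 626 and 688 in Slit2th (log2 difference 0.00, exact permutation p = 1), and Cxcl12 was 26.3, 109 and 143 against 40.2, 129 and 136 (0.26, p = 0.7 in the exact permutation test). Single libraries set the sign here, with Il33 at -1.11 without Slit2fl/fl replicate 1 and 0.87 and 0.68 without Slit2fl/fl replicate 3 or Slit2th replicate 1, and Cxcl12 at -0.49 without Slit2fl/fl replicate 1. The macrophage sum stood higher in every Slit2th library, as both genes did, and its part in their difference was not tested. Il34 stayed lower in Slit2th beside each of the sums, with log2 differences of -3.01 for glia, -2.71 for fibroblasts, -4.01 for macrophages and -1.70 for neurons. Without Slit2fl/fl replicate 1 the glial and fibroblast values were -1.99 and -1.94, without Slit2fl/fl replicate 3 the glial value was -3.60, and the macrophage value was -2.94 without Slit2th replicate 1 and -4.78 without Slit2th replicate 2. The neuronal value was the smallest with all 6 libraries: Slit2fl/fl replicate 1, which held the most Il34, also held the largest neuronal sum, and Il34 per 1000 CPM of neuronal markers was 489, 412 and 315 CPM against 75.1, 195 and 125 CPM. In that library Tubb3, Uchl1 and Stmn2 were at their highest (290, 236 and 43.1 CPM), while Slc18a2 was at its lowest (4.47 CPM). Only 4 of the 15 neuronal genes passed the filter, and whether their sum follows neurons was not tested.

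**Figure D4:**
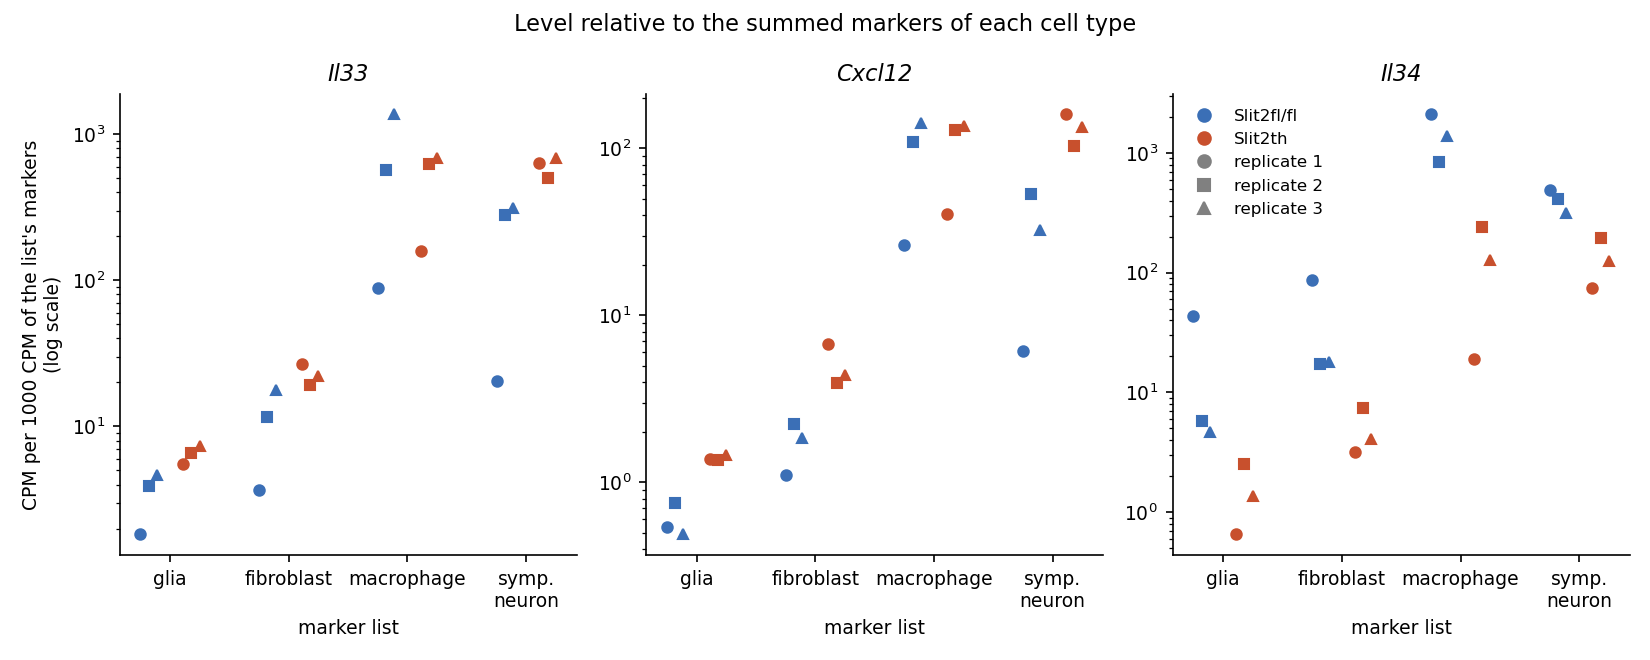
Il33, Cxcl12 and Il34 in CPM per 1000 CPM of summed glial, fibroblast, macrophage and neuronal markers, on log axes, with each library as a point. Groups separate for every pairing except Il33 and Cxcl12 over macrophage markers, where the log2 differences are 0.00 and 0.26.

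Receptors for the 10 ligands divided into a well detected and a barely detected set. Of 14 in the table, 8 were tested, 7 of these had a positive log2 fold change (median 1.04), and 0 were called. Il6st, the signal-transducing subunit for Il6 and Lif, was the most abundant, with 494, 332 and 344 counts in Slit2fl/fl and 809, 602 and 571 in Slit2th. At 158, 215 and 195 CPM against 712, 287 and 322 CPM its groups did not overlap, with Slit2th replicate 1 far above the rest. Its log2 fold change was 1.22 (SE 0.42, adjusted p = 0.423 in the edgeR QL test), and 0.69 without that library. Lifr, the partner of Il6st in the Lif receptor, had 10, 9 and 5 counts against 48, 8 and 15, and its log2 fold change of 2.16 (SE 0.88) was 0.64 without Slit2th replicate 1. Slit2th replicate 1 was also the library with the largest macrophage and glial sums, whose part in these values was not tested. The ligand-binding Il6ra overlapped at 52.1 to 89.3 CPM against 86.2 to 100.5 CPM (0.45, SE 0.34).

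Il1rap, the accessory chain through which Il33 and interleukin-1 signal, stood at 31.0, 93.8 and 59.0 CPM in Slit2fl/fl against 122, 124 and 185 CPM in Slit2th. Its groups did not overlap (log2 fold change 1.23, SE 0.45, adjusted p = 0.424 in the edgeR QL test), and its exons overlap those of the antisense gene Gm20319. Ptprz1, the phosphatase that Il34 also binds, was 5.75, 8.41 and 8.51 CPM against 10.6, 11.4 and 18.6 CPM, again without overlap (0.85, SE 0.47). With Il6st these made 3 of 8 receptors not overlapping and higher in Slit2th, where 8.72% of all genes were. By contrast, the receptors that define the responding white blood cells were close to 0. Over all 6 libraries Ccr2 had 1 count, Cxcr2 1, Cxcr4 2, Ackr3 3, Ccr1 6 and Csf1r 11. Csf1r, the defining receptor of macrophages, had 2, 0 and 1 counts in Slit2fl/fl and 0, 3 and 5 in Slit2th, including 0 in the library with the largest macrophage sum. Ackr1 had 18 counts and Cx3cr1 14.

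**Figure D5:**
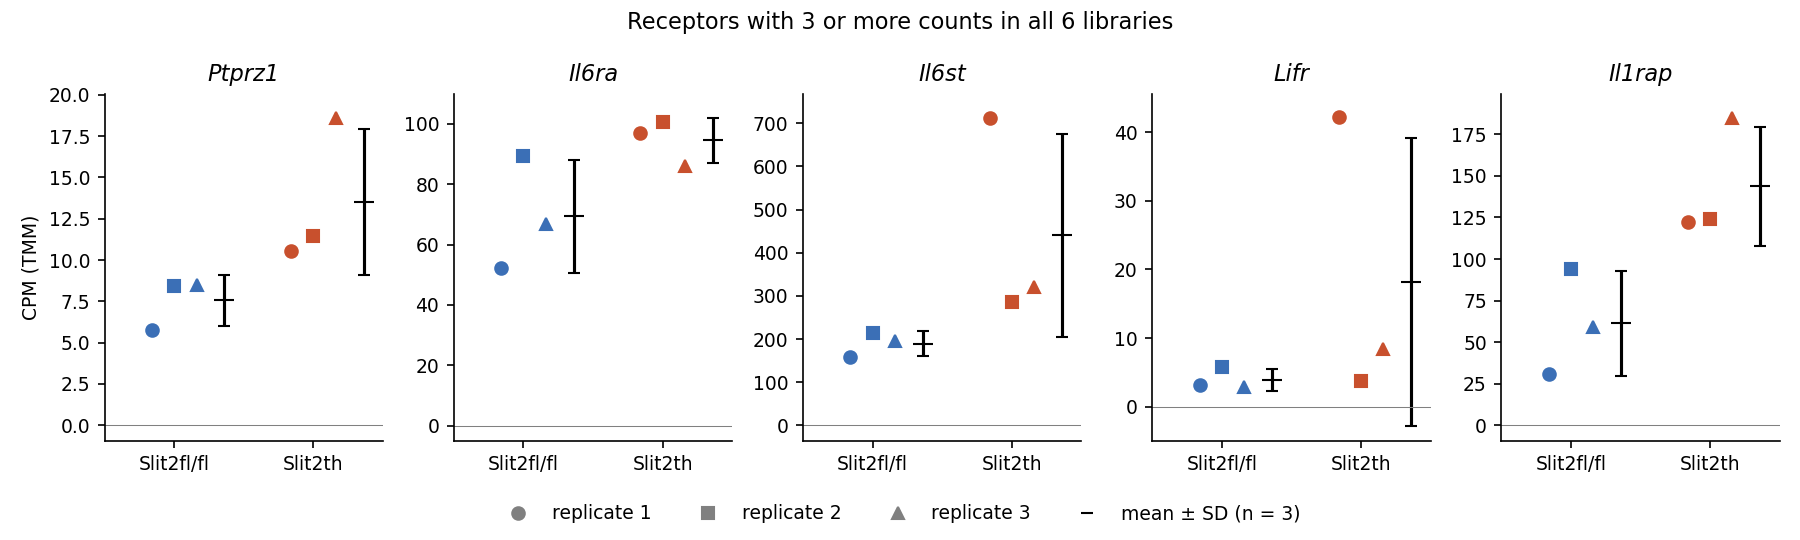
CPM of the 5 receptors with 3 or more counts in all 6 libraries, with 1 panel per gene, points for libraries and black bars for the mean ± SD of each group (n = 3). Il6st, Il1rap and Ptprz1 are higher in all 3 Slit2th libraries than in any Slit2fl/fl library, and Il6ra and Lifr overlap.

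Other chemokines showed no common direction, with 6 of 12 tested on each side of 0 (median -0.03, 0 called) and 19 of 22 with a count. On chromosome 11, beyond Ccl7, lie Ccl11, Ccl12 and Ccl8. Ccl11 (eotaxin), which draws eosinophils, was 32.0, 67.9 and 69.2 CPM against 94.2, 74.8 and 91.3 CPM (log2 fold change 0.62, SE 0.39). Ccl8, a further monocyte chemokine, was 32.3, 20.7 and 30.1 CPM against 14.1, 11 and 3.38 CPM (-1.57, SE 0.55). Neither overlapped between groups, and they lay on opposite sides of 0, while Ccl12 had 1 count in all. On chromosome 5, the neutrophil chemokine Cxcl2 had 22, 2 and 10 counts against 0, 2 and 1 (-2.92, SE 1.03), and Pf4, a platelet and macrophage chemokine, had 24, 2 and 6 against 106, 19 and 31 (3.15, SE 0.95). Neither Cxcl2 nor Pf4 overlapped in CPM, the difference in Cxcl2 was -3.59 without Slit2th replicate 2, and that in Pf4 was 1.59 without Slit2th replicate 1 and 4.02 without Slit2fl/fl replicate 1. Cxcl2 was under the floor of 3 counts in every Slit2th library. With Ccl11 and Ccl8, these made 2 of 12 tested not overlapping on the higher side and 2 on the lower. Over all genes these shares were 8.72% and 9.73%. For Ccl8, Cxcl2 and Pf4 the adjusted p was 0.423 in the edgeR QL test. Ccl9, the next by level, overlapped, with Slit2fl/fl libraries at 3.84 to 15.5 CPM, and Ccl5, Ccl17 and Ccl22 had 0 counts.

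Among other cytokines, 9 of 17 were tested, 3 of them with a positive log2 fold change (median -0.07, 0 called). Spp1 (osteopontin), an adhesive secreted protein that attracts macrophages, dominated the list at 1666, 6608 and 5955 CPM in Slit2fl/fl against 9085, 9717 and 10737 CPM in Slit2th. The groups did not overlap, and its log2 fold change was 1.05 (SE 0.51, adjusted p = 0.480 in the edgeR QL test). This was 1 of the 9 tested not overlapping and higher in Slit2th, where 8.72% of all genes were. Cntf and Clcf1, ligands of the Il6st family, and the stem cell factor Kitl overlapped between groups, with means of 58.5 to 82.8 CPM over the series. The inflammatory cytokines Il1b and Tnf had 0 and 1 count in all.

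Genes downstream of these receptors were all measured, with 16 of 16 tested, 10 positive (median 0.21) and 0 called. Cebpb, a transcription factor of the inflammatory response, was 24.0, 107 and 50.5 CPM against 136, 202 and 167 CPM without overlap (log2 fold change 1.49, SE 0.52, adjusted p = 0.423 in the edgeR QL test). Without Slit2fl/fl replicate 2 this was 2.19. Its exons overlap those of Tmem189 on the other strand. Nfkbiz, a nuclear cofactor of NF-kappaB, was 45.7 to 72.6 CPM against 79.2 to 87.6 CPM (0.48, SE 0.34). Stat3, the transcription factor that Il6 and Lif activate, was lower, at 44.1, 39.5 and 47.7 CPM against 26.4, 31.4 and 31.5 CPM (-0.55, SE 0.34). Pias3, an inhibitor of Stat3, had 170, 16 and 17 counts against 2, 8 and 2 (-3.41, SE 0.86, adjusted p = 0.423 in the edgeR QL test), -2.07 without Slit2fl/fl replicate 1 and -4.10 without Slit2th replicate 2. These 4 of 16 did not overlap, 2 on each side of 0, where 18.4% of all genes did not. Jak1, the kinase bound to Il6st, overlapped at 859.7 to 1009 CPM against 933 to 1225 CPM, as did the NF-kappaB subunit Rela and its inhibitor Nfkbia.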

How the data were processed

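Total RNA of cultured mouse sympathetic neurons was sequenced by the authors on an Illumina HiSeq instrument from TruSeq libraries and aligned with HISAT2 to mm10, while the labels' processing notes name GRCm39. How reads were assigned to genes, with or without regard to strand, is not given in the sources used here. The deposited values are whole-number counts per gene for 20173 genes, made by the authors with no normalization, for 3 Slit2fl/fl and 3 Slit2th libraries (1255939 to 3155406 counts), grouped by label.

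From these counts, 12152 genes reaching 1 CPM in 3 or more libraries entered edgeR 4.0.16 (R 4.3.3; TMM scaling, quasi-likelihood test, no covariate), with p adjusted over all genes tested (Benjamini-Hochberg) and a threshold of 0.05. Log2 fold changes are Slit2th over Slit2fl/fl. The common biological coefficient of variation was 50.4%. Single genes were also compared by an exact two-sided permutation test of log2(CPM + 0.5). The steps were tested on simulated counts. The floor of 3 counts covers counting error only, and intervals cover the spread between libraries.

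Positions and exon lengths came from GENCODE M21 (GRCm38), in which 20159 of 20173 identifiers were found, and promoters from RefSeq. A CPM per kb is the CPM divided by the merged exon length.

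The members and lists were chosen with earlier results of these data known. Named genes were the 10 members, Slit2, of each pathway list the tested genes with the 5 highest mean CPM and those whose groups did not overlap, and of each marker list at most 3 with the highest mean CPM and defining markers at 0. The receptors, chemokines and cytokines at few counts, Snap25, Npy and Cd163 were named after their values were seen. Listed genes outside the table were not analysed here. A few further genes are not reported here. Alternatives covered the size factors, the filter, DESeq2 1.42.0, edgeR's exact test, limma-voom (limma 3.58.1), the replicate number as a block, and each library left out. Ratios to summed markers, and each ratio with single libraries left out, were added after seeing the data.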

Additional observations from a re-analysis of the deposited data

How the results depend on the processing

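Over 15 other settings the direction of Cxcl12 (log2 fold change 1.53 to 2.38, adjusted p in the tests used 0.0785 to 0.703), Il33 (1.04 to 1.96, 0.0335 to 0.703), Il34 (-2.86 to -1.10, 0.0602 to 0.703), Ccl2 (0.03 to 0.62), Ccl7 (-0.88 to -0.26) and Lif (0.61 to 1.38) was kept. Cxcl1 reversed to -0.25 under limma-voom, -0.23 with the replicate block, -0.02 without Slit2fl/fl replicate 1 and -0.73 without Slit2th replicate 3, and with single libraries left out it ran from -0.73 to 0.58. Csf1 reversed to -0.03 without Slit2fl/fl replicate 1 (range with single libraries left out -0.03 to 0.61), and Il33 was 0.00 relative to the summed macrophage markers. The cause was not tested.

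The count of genes called over the whole table was 7 with no filter on low counts, 31 with DESeq2, 17 with edgeR's exact test and 0 to 1 with a library left out. Without replicate 1 of both groups it was 378 (88 higher, 290 lower), and this setting called 1 member (Il33), 1 other cytokine (Spp1, log2 fold change 0.69, edgeR adjusted p = 0.0318) and 1 signaling gene (Cebpb, 1.22, edgeR adjusted p = 0.0377). DESeq2 called 1 signaling gene (Pias3, -3.43, DESeq2 adjusted p = 0.0381).

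Same-numbered libraries of the groups correlated at 0.260, 0.206 and 0.0618 in their deviations from group means, which does not show pairing. With the number as a block, 0 genes were called, against 1615 at an unadjusted p under 0.05, and the median over the 9 members tested was 0.35, against 0.30 without the block. At this depth Il6 and Cx3cl1 could not be compared, and for Cxcl1 the interval spans both directions. DESeq2 gave no adjusted p for Cxcl1, Cx3cl1 or Cxcl2, and those values are left out.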
